A study of Rattus norvegicus with 6 samples.

Results

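Mitochondria take up most of their proteins through translocases of their outer and inner membranes, and they exchange metabolites with the cytosol through channels of the outer membrane and carriers of the inner membrane. The genes described here encode those pores: the TOMM subunits of the outer membrane translocase, the TIMM subunits of the inner membrane translocases and their chaperones, the voltage-dependent anion channels (VDAC) and the SLC25 mitochondrial carriers. They were taken as the protein-coding rows of the deposited table whose symbols begin with Timm, Tomm, Vdac or Slc25a followed by a digit, leaving out Slc25a20, Slc25a28 and Slc25a37. These members were 70 of the table's 22250 protein-coding genes and 34510 rows, made up of 15 Timm, 9 Tomm, 3 Vdac and 43 Slc25a genes. The rule names symbols and biotypes and no measured value, but these gene families were picked with earlier results of these data known.

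The 3 Trim28 libraries came from neonatal rat ventricular cardiomyocytes, primary muscle cells taken from the hearts of newborn rats. These cells carried TRIM28 from an adenoviral vector. The 3 Bgal libraries came from the same cell type. Their labels do not expand the name or state which virus those cells received. Poly(A) RNA was sequenced, and the labels give no dose, time, rat strain or pooling of animals, nor do they say that libraries came from separate cultures, so the p-values rest on the spread among 3 libraries per group, part or all of which may be technical. The series frames the comparison around TRIM28, a chromatin corepressor, and ferroptosis, an iron-dependent way for cells to die through oxidised membrane lipids.

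As background, a precursor protein is recognised by receptors of the TOM complex and crosses the outer membrane through the TOMM40 channel. Precursors with a cleavable presequence go on through the TIM23 complex, while carriers of the SLC25 family are escorted by small TIM chaperones to the TIM22 complex. Heart muscle holds many mitochondria, and its ADP/ATP carriers, phosphate carrier and VDAC channels connect ATP synthesis in the matrix to ATP use by the contractile apparatus.

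Reads assigned to genes numbered 26146166 to 28298731 in the Trim28 libraries and 28574951 to 34593292 in the Bgal libraries. Trim28 itself had 2923, 2889.8 and 980.0 FPKM in the Trim28 libraries, against 81.6, 87.8 and 77.6 FPKM in the Bgal libraries, and the library of Trim28 replicate 3 was the lowest of its group. Summed levels of the cardiomyocyte markers found (Myh6, Tnnt2, Tnni3, Actn2, Ryr2, Pln and Nppa) were 15322 to 16629 FPKM in the Trim28 libraries and 15167 to 16023 FPKM in the Bgal libraries. Of these 7 markers, 2 passed the test as higher and 3 as lower. Nppa, a natriuretic peptide gene that also responds to stress, made up much of this sum. Without it, a choice made after its values were seen, the other 6 summed to 9719, 9839 and 9748 FPKM in the Trim28 libraries, against 11007, 11129 and 11774 FPKM in the Bgal libraries, and these sums did not overlap. Their ratio of means, Trim28 over Bgal, was 0.864. Markers of other cells were also present. The 8 fibroblast markers summed to 1016 to 1077 FPKM in the Trim28 libraries and 654 to 706 FPKM in the Bgal libraries, with 6 higher and 0 lower. The 7 smooth muscle and mural markers summed to 1592 to 1682 FPKM in the Trim28 libraries and 746 to 998 FPKM in the Bgal libraries, with 6 higher and 0 lower. The 5 leukocyte and macrophage markers found summed to 56.3 to 57.3 FPKM in the Trim28 libraries and 23.7 to 24.3 FPKM in the Bgal libraries, and all 5 passed as higher. Of 5 endothelial markers found, 2 were tested, with 1 higher and 1 lower, while Cdh5, Tie1 and Vwf stayed under 0.6 FPKM, and no marker found in any list was at 0 in every library.

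Expression was compared as log2(FPKM + 1), where FPKM is fragments per kilobase of gene length, scaled to a read total of each library. The test was limma across the 14808 genes that reached 0.5 FPKM in 3 or more libraries, and a call needs an adjusted p under 0.05. Of the 70 genes, 59 passed this filter, none of them through 1 group alone, and 11 did not. Among the 59, 27 fell and 4 rose in the Trim28 libraries, and 28 did not pass. Over all tested genes, 21.1% fell and 20.1% rose. The median log2 difference of the 59 was -0.14, against -0.017 over all tested genes. Without overlap between the 3 libraries of each group, 29 of the 59 were lower and 7 higher, against 27.7% and 26% of all tested genes. The 4 calls of higher expression became 2 without Trim28 replicate 1, without Trim28 replicate 2 or without Bgal replicate 3, each left out in turn.

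The 70 genes together summed to 5333, 5417 and 5311 FPKM in the Trim28 libraries, against 6372, 6504 and 6680.4 FPKM in the Bgal libraries. The groups did not overlap, and the ratio of means, Trim28 over Bgal, was 0.821. It was 0.864 for the 6 cardiomyocyte markers other than Nppa and 1.03 for all 7. Of the 6, Tnnt2, Tnni3 and Pln passed as lower, Actn2 passed as higher, and Myh6 and Ryr2 did not pass. In bulk RNA, fewer cells of a type and less RNA per cell cannot be told apart, and the same Trim28 libraries had the higher summed fibroblast, mural and leukocyte markers given above. The part of any of these markers in the result was not tested. Within this sum the levels were very uneven: Slc25a4 and Slc25a3 carried 22.9% and 18.5% of the mean level of the 70 genes over the 6 libraries.

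**Figure D1:**
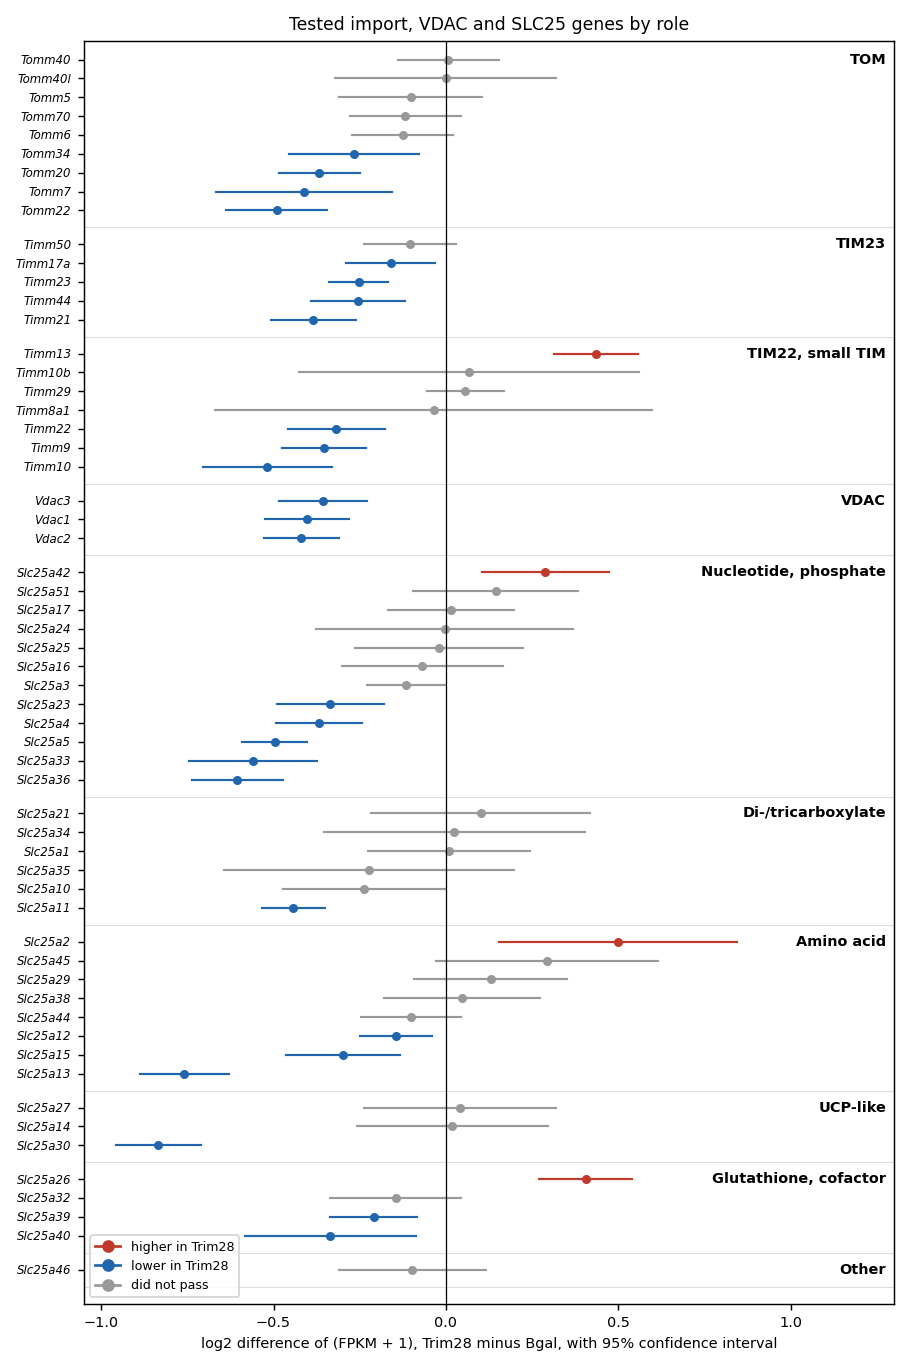
Log2 difference of (FPKM + 1), Trim28 minus Bgal, for 58 of the 59 tested import, VDAC and SLC25 genes, sorted by role from top to bottom. Points are limma estimates from 3 libraries per group and lines are 95% confidence intervals; blue genes passed as lower (26 drawn), red genes as higher (4) and grey genes did not pass (28).

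Of the 9 Tomm genes, 4 fell and none rose, beside 21.1% and 20.1% of all tested genes. The 4 were the receptor genes Tomm22 and Tomm20, the small subunit gene Tomm7, and Tomm34, which encodes a cytosolic cochaperone and no subunit of the complex. Of the other 8 genes, 3 fell, and the channel gene did not pass. At a mean of at least 20 FPKM, where every Tomm gene but Tomm34 and Tomm5 lay, 35% of all tested genes fell. Tomm22, the central receptor that also organises the complex, had 53.6, 55.8 and 61.5 FPKM in the Trim28 libraries, against 82.8, 76 and 82.2 FPKM in the Bgal libraries (log2 difference -0.49, SE 0.063, limma adjusted p = 0.000969). Tomm20, the receptor that binds presequences, had 136, 132 and 135 FPKM in the Trim28 libraries, against 163, 174 and 183 FPKM in the Bgal libraries (log2 difference -0.37, SE 0.050, limma adjusted p = 0.00131). Both receptors were lower in each Trim28 library than in any Bgal library. Tomm7, a small subunit that tunes the stability of the complex, had 55.5, 54 and 51.8 FPKM in the Trim28 libraries, against 59.4, 76.3 and 81.6 FPKM in the Bgal libraries (log2 difference -0.41, SE 0.11, limma adjusted p = 0.0202). Its groups did not overlap, but Bgal replicate 1 lay close to the Trim28 values. The call of Tomm7 was lost when any 1 of Trim28 replicates 2 and 3, or of Bgal replicates 2 and 3 was left out (limma adjusted p between 0.0534 and 0.0634), within a range from 0.00139 to 0.0634 over the alternatives. Tomm34 fell to 11.8 ± 0.363 FPKM in the Trim28 libraries, against 14.4 ± 1.5 FPKM in the Bgal libraries. That call was lost when any 1 of Trim28 replicates 1, 2 and 3, or of Bgal replicates 1 and 2 was left out (limma adjusted p between 0.062 and 0.109, and 0.0595 with no filter), within a range from 0.00787 to 0.109 over the alternatives.

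The other 5 Tomm genes did not pass. Tomm40, the channel itself, had 82.3, 77.5 and 86.8 FPKM in the Trim28 libraries, against 87.4, 81.2 and 76.8 FPKM in the Bgal libraries, and the groups overlapped (95% confidence interval of the log2 difference -0.14 to 0.15). Its paralog Tomm40l held 24.6 ± 2.54% in the Trim28 libraries and 24.7 ± 2.58% in the Bgal libraries of the summed level of the 2 genes (SD, n = 3 each). Tomm70, the receptor that takes carrier precursors, stood at 44 ± 3.5 FPKM in the Trim28 libraries and 47.7 ± 2.57 FPKM in the Bgal libraries (interval -0.28 to 0.043). Tomm6, a small subunit and the most abundant TOM gene here, had 330.0, 359.5 and 308 FPKM in the Trim28 libraries, against 349, 363 and 374 FPKM in the Bgal libraries (interval -0.27 to 0.022). Tomm5 was low, at 2.27 ± 0.133 FPKM in the Trim28 libraries and 2.51 ± 0.114 FPKM in the Bgal libraries. All 3157 bases of the Tomm5 locus in the deposited table also lie within Fbxo10, a gene on the same strand, so reads of the 2 genes may be split between them.

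The TIM23 complex, which takes presequence proteins across or into the inner membrane, was lower in 4 of 5 tested genes. The share lower was 21.1% of all tested genes and 35% of those at a mean of at least 20 FPKM. Timm21, which docks the complex to TOM, had 41.8, 39.8 and 41 FPKM in the Trim28 libraries, against 51.3, 52.5 and 57.2 FPKM in the Bgal libraries (log2 difference -0.38, SE 0.053, limma adjusted p = 0.0013). Timm23, the channel-forming subunit, had 111, 114 and 114 FPKM in the Trim28 libraries, against 134, 134 and 137 FPKM in the Bgal libraries (log2 difference -0.25, SE 0.037, limma adjusted p = 0.00159). Timm44, which tethers the import motor to the channel, had 58.7, 62.9 and 54.6 FPKM in the Trim28 libraries, against 69.1, 68.9 and 72.6 FPKM in the Bgal libraries (log2 difference -0.25, SE 0.059, limma adjusted p = 0.0115). In all 3 genes each Trim28 library lay below each Bgal library. Timm17a, the partner of Timm23 in the membrane, stood at 116 ± 5.96 FPKM in the Trim28 libraries and 129.6 ± 6.1 FPKM in the Bgal libraries with an adjusted p of 0.0498 in limma, at the edge of the threshold. Its call was lost without any 1 of the 6 libraries (limma adjusted p between 0.0619 and 0.16), and also with a pseudocount of 0.1 (0.0511), no filter (0.0822) and TMM factors (0.064). Over the alternatives its adjusted p ranged from 0.0292 to 0.16. Timm50, the receptor of the complex in the intermembrane space, stood at 38 ± 0.729 FPKM in the Trim28 libraries and 41 ± 2.81 FPKM in the Bgal libraries and did not pass (interval -0.24 to 0.029).

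The small TIM genes moved in both directions. Timm9 and Timm10 form the hexameric chaperone that carries SLC25 precursors between the membranes, and both fell. The share that fell was 35% of all tested genes at a mean of at least 20 FPKM. Timm9 had 31.5, 34.1 and 33.2 FPKM in the Trim28 libraries, against 43.9, 40.4 and 42.9 FPKM in the Bgal libraries (log2 difference -0.35, SE 0.052, limma adjusted p = 0.0017). Timm10 had 35.8, 40.3 and 34.1 FPKM in the Trim28 libraries, against 48.6, 53.6 and 56.8 FPKM in the Bgal libraries (log2 difference -0.52, SE 0.079, limma adjusted p = 0.00212). Timm13, which forms the parallel chaperone with the TIMM8 proteins, rose. Its values were 90.2, 100.2 and 96.7 FPKM in the Trim28 libraries, against 69.5, 73.3 and 68.6 FPKM in the Bgal libraries (log2 difference 0.43, SE 0.052, limma adjusted p = 0.000754, 95% confidence interval 0.31 to 0.56; ENSRNOG00000019682, chromosome 7, 11677340 to 11678442, plus strand; positions are those of the deposited table, whose genome build the sources used here do not name). The ratio of Timm13 to Timm9 in FPKM was 2.86, 2.94 and 2.91 in the Trim28 libraries and 1.58, 1.81 and 1.6 in the Bgal libraries. Timm13 to Timm10 gave 2.52, 2.49 and 2.84 in the Trim28 libraries and 1.43, 1.37 and 1.21 in the Bgal libraries, so neither ratio overlapped between the groups. Over the alternatives run, the calls of Timm9, Timm10 and Timm13 kept their direction and passed. The Timm9 locus shares 12831 bases with AC128303.1 on the opposite strand, which stood at 0.283 FPKM in the Trim28 libraries and 0.407 FPKM in the Bgal libraries.

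Timm8a1, a partner of Timm13, had 44.6, 20.9 and 20.3 FPKM in the Trim28 libraries, against 25.7, 28.5 and 28.2 FPKM in the Bgal libraries. Trim28 replicate 1 was the highest of all libraries, and the other 2 Trim28 libraries lay below every Bgal library. With every library Timm8a1 did not pass (log2 difference -0.036, SE 0.27, limma adjusted p = 0.928). Without Trim28 replicate 1 it passed as lower (limma adjusted p = 0.00713, with 0.983 as the highest value over the alternatives). Its gene model is short, at 472 bases. Timm22, the core of the carrier translocase, had 17.3, 17.7 and 18.8 FPKM in the Trim28 libraries, against 24.1, 22 and 21.7 FPKM in the Bgal libraries (log2 difference -0.32, SE 0.060, limma adjusted p = 0.00517). Timm29, another subunit of that translocase, stood at 27.8 ± 0.894 FPKM in the Trim28 libraries and 26.7 ± 0.633 FPKM in the Bgal libraries and did not pass (interval -0.054 to 0.17). Timm10b, a small TIM bound to the same complex, stood at 1.9 ± 0.732 FPKM in the Trim28 libraries and 1.74 ± 0.486 FPKM in the Bgal libraries (interval -0.43 to 0.56). Its locus shares 2842 bases with Dnhd1 on the same strand, so reads of the 2 genes may be split between them.

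**Figure D2:**
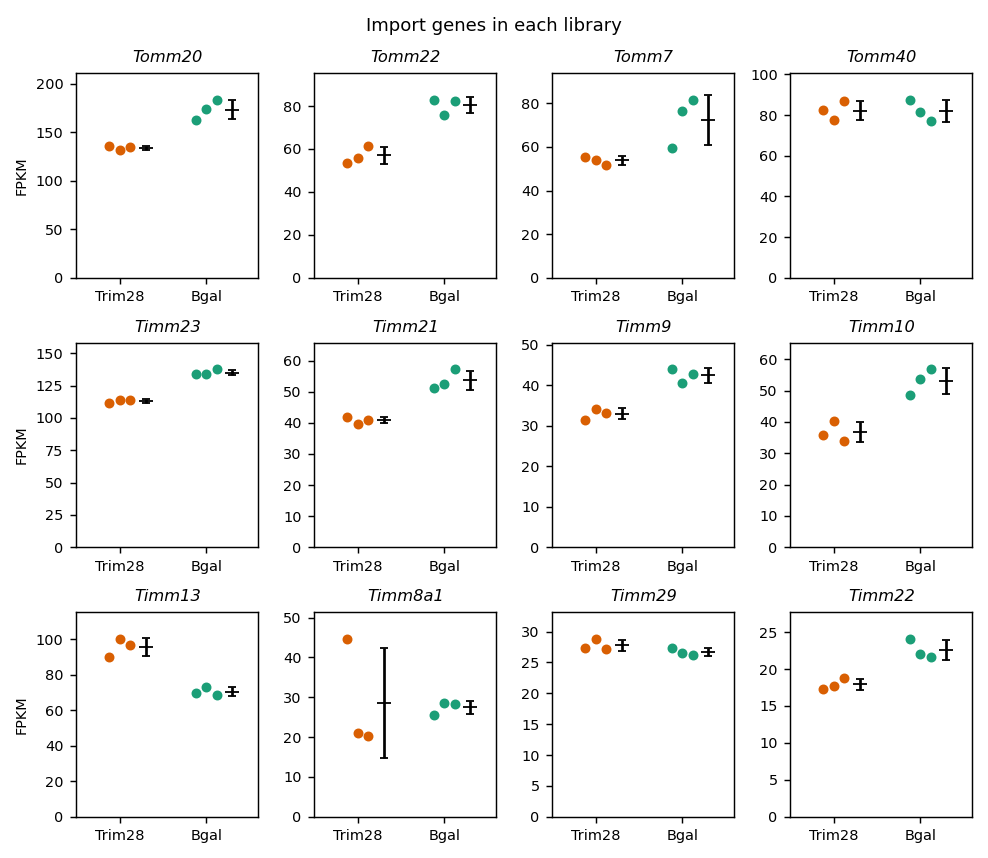
FPKM of 12 import genes in each library, with the 3 Trim28 libraries left and the 3 Bgal libraries right in each panel and axes that start at 0. Points are libraries, and the bar beside them is the mean with its SD (n = 3). Tomm22, Timm9 and Timm10 are lower in every Trim28 library, Timm13 is higher in every Trim28 library, Tomm40 overlaps, and Timm8a1 has 1 Trim28 library at 44.6 FPKM above all others.

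Promoter windows of 300 bases, 250 before the annotated start and 50 after it, were available from RefSeq (build GRCr8) for 61 of the 70 genes, matched by symbol. Shown here are those of the receptor gene Tomm20 (chr19:71832371-71832670, minus strand), of the chaperone pair Timm10 (chr3:90314889-90315188, plus strand) and Timm9 (chr6:95358846-95359145, minus strand), which fell, and of Timm13 (chr7:9459496-9459795, plus strand), which rose. Each runs 5′ to 3′ on its gene's strand. Capitals mark matches on either strand to the motifs of nuclear respiratory factor 1 (NRF1, GCGCANGCG), of ETS factors (CCGGAAGT) or to the palindromic E-box (CACGTG).
Tomm20: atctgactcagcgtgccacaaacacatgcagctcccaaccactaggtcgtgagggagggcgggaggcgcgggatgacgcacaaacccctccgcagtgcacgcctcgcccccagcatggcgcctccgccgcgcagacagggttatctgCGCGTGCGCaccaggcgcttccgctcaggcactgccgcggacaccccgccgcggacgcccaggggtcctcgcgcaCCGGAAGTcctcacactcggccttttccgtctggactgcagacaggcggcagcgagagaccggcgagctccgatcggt
Timm10: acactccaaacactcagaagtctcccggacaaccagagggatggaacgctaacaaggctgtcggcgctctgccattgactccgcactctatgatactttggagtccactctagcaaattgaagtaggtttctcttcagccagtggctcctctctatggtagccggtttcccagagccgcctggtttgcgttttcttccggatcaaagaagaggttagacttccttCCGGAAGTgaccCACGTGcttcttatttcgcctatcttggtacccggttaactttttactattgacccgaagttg
Timm9: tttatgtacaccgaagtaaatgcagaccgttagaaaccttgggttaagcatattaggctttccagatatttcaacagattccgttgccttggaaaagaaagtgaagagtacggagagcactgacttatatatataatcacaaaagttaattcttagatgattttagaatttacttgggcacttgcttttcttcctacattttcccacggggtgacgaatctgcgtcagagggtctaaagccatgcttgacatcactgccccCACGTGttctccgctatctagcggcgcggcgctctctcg
Timm13: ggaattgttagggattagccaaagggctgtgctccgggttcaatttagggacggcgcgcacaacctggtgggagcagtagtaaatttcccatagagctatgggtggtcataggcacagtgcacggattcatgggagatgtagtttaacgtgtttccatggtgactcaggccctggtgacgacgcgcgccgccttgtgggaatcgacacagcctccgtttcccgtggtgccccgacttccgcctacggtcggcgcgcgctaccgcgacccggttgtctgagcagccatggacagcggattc
Tomm20 held an NRF1 and an ETS match, Timm10 an ETS match followed by an E-box, Timm9 an E-box, and the Timm13 window none of the motifs searched. These 4 windows do not stand for the rest: 14 of the 22 windows of genes that fell held no motif, and 2 of the 3 windows of genes that rose held one.

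The NRF1 motif was in 6 of the 61 windows (9.84%), against 5.8% of all 33469 promoter windows and 7.62% of the 21842 windows of protein-coding genes. The ETS motif was in 8 of 61 (13.1%), against 3.81% of all windows and 4.78% of the protein-coding ones. The E-box was also in 8 of 61 (13.1%, against 6.42% and 7.01%). The YY1 motif AAGATGGCG was in 3 windows (4.92%, against 1.73% and 2.07%), and the estrogen-related receptor motif TCAAGGTCA in 1, that of Timm8b (1.64%, against 0.433% and 0.366%). At least 1 of the 5 motifs was in 8 of the 22 windows of genes that fell (36.4%), in 8 of 25 of genes that did not pass (32%) and in 2 of 3 of genes that rose (Slc25a2 and Slc25a42), against 16% of all windows and 19% of the protein-coding ones. A match is a string in the window and not a mapped binding site, and the 5 motifs do not overlap in the 4 windows shown.

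All 3 VDAC genes, which encode the main metabolite channels of the outer membrane, fell. Of all tested genes at a mean of at least 20 FPKM, 35% fell. Vdac1 (ENSRNOG00000006375, chromosome 10, 37724915 to 37752826, plus strand) had 237, 235 and 248 FPKM in the Trim28 libraries, against 307, 307 and 339 FPKM in the Bgal libraries (log2 difference -0.40, SE 0.052, limma adjusted p = 0.00104). Vdac2 (ENSRNOG00000013505, chromosome 15, 2634624 to 2648551, minus strand), the isoform that also binds the cell death protein BAK, had 182, 181 and 179 FPKM in the Trim28 libraries, against 245, 228 and 252 FPKM in the Bgal libraries (log2 difference -0.42, SE 0.047, limma adjusted p = 0.000577). Vdac3 (ENSRNOG00000019277, chromosome 16, 74292438 to 74308903, plus strand) was the most abundant of the 3, with 324, 327 and 338 FPKM in the Trim28 libraries, against 427, 395 and 447 FPKM in the Bgal libraries (log2 difference -0.36, SE 0.054, limma adjusted p = 0.002). No Trim28 library reached any Bgal library in any of the 3 genes. Their proportions differed by less than 1 percentage point between the groups. Of the summed VDAC level, Vdac3 made up 44 ± 0.318% in the Trim28 libraries and 43.1 ± 0.551% in the Bgal libraries (SD, n = 3 each), Vdac1 32 ± 0.384% in the Trim28 libraries and 32.3 ± 0.838% in the Bgal libraries, and Vdac2 24.1 ± 0.596% in the Trim28 libraries and 24.6 ± 0.374% in the Bgal libraries. All 3 passed in every alternative.

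The ADP/ATP carriers, which exchange matrix ATP for cytosolic ADP, fell in both isoforms detected. Among all tested genes at a mean of at least 20 FPKM, 35% fell. Slc25a4, the isoform of heart and skeletal muscle and the most abundant of the 70 genes, had 1179.9, 1209 and 1164 FPKM in the Trim28 libraries, against 1456, 1594 and 1541 FPKM in the Bgal libraries (log2 difference -0.37, SE 0.053, limma adjusted p = 0.00158). Slc25a5, the isoform of proliferating and many other cells, had 389, 399 and 388 FPKM in the Trim28 libraries, against 541, 553 and 566 FPKM in the Bgal libraries (log2 difference -0.50, SE 0.040, limma adjusted p = 0.000171). Slc25a4 made up 75.1 ± 0.13% in the Trim28 libraries and 73.4 ± 0.729% in the Bgal libraries of their summed level (SD, n = 3 each), and the shares did not overlap. Slc25a31, the isoform of the germ line, was listed at 0 in every library. The phosphate carrier Slc25a3, which supplies phosphate to ATP synthase, had 1061, 1064 and 1041 FPKM in the Trim28 libraries, against 1127, 1111 and 1194 FPKM in the Bgal libraries. Its groups did not overlap, yet it did not pass (log2 difference -0.12, 95% confidence interval -0.23 to -0.0025, limma adjusted p = 0.0938). With limma-voom on recovered reads it passed (limma adjusted p = 0.0161, within a range up to 0.226 over the alternatives).

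The carriers of the malate-aspartate shuttle, which moves reducing equivalents from cytosolic NADH into mitochondria, fell in all 3 genes. That compares with 35% of all tested genes at a mean of at least 20 FPKM. The shuttle was not one of the planned role lists, and its genes come from 2 of them. In those lists, 3 of 8 tested amino acid carriers and 1 of 6 tested di- and tricarboxylate carriers fell. Slc25a13, an aspartate/glutamate carrier activated by calcium (ENSRNOG00000009957, chromosome 4, 31608269 to 31730386, minus strand), had 40.2, 39 and 42.1 FPKM in the Trim28 libraries, against 73.6, 66.5 and 67.1 FPKM in the Bgal libraries (log2 difference -0.76, SE 0.055, limma adjusted p = 0.000118). This was a 1.71-fold lower mean in the Trim28 libraries. Its paralog Slc25a12, the isoform known for heart, muscle and brain, had 52.5, 56.6 and 54.2 FPKM in the Trim28 libraries, against 59.5, 59.6 and 61.7 FPKM in the Bgal libraries (log2 difference -0.14, SE 0.044, limma adjusted p = 0.0346), a 1.11-fold lower mean. The ratio of Slc25a12 to Slc25a13 in FPKM was 1.31, 1.45 and 1.29 in the Trim28 libraries and 0.808, 0.896 and 0.92 in the Bgal libraries. Slc25a12 was the more abundant isoform in each Trim28 library and the less abundant in each Bgal library. The call of Slc25a12 was lost when any 1 of Trim28 replicates 1 and 3, or of Bgal replicates 1, 2 and 3 was left out (limma adjusted p between 0.0582 and 0.124, and 0.0581 with the replicate block), within a range from 0.0188 to 0.124 over the alternatives. The call of Slc25a13 held throughout. Slc25a11, the oxoglutarate carrier and the other arm of the shuttle, had 137, 137 and 134 FPKM in the Trim28 libraries, against 186, 190.3 and 180.5 FPKM in the Bgal libraries (log2 difference -0.44, SE 0.039, limma adjusted p = 0.000221).

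Slc25a30 showed the largest fall on the log2 scale among the 70 genes. It encodes a carrier related to the uncoupling proteins, first described in kidney (ENSRNOG00000001052, chromosome 15, 57813356 to 57834173, minus strand). It had 26, 25.3 and 25.7 FPKM in the Trim28 libraries, against 49.6, 45.1 and 44.8 FPKM in the Bgal libraries (log2 difference -0.83, SE 0.053, limma adjusted p = 8.23e-05), a 1.81-fold lower mean. The groups did not overlap, and the SD was 0.362 FPKM in the Trim28 libraries and 2.7 FPKM in the Bgal libraries. The other carriers of this type, Slc25a14 and Slc25a27, did not pass and stood at 2.11 ± 0.144 FPKM in the Trim28 libraries and 2.09 ± 0.374 FPKM in the Bgal libraries, and at 0.977 ± 0.162 FPKM in the Trim28 libraries and 0.922 ± 0.144 FPKM in the Bgal libraries.

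The pyrimidine nucleotide carriers Slc25a36 and Slc25a33 both fell, beside 21.1% of all tested genes. Slc25a36 had 41, 41.5 and 37.5 FPKM in the Trim28 libraries, against 61.7, 58.6 and 63.7 FPKM in the Bgal libraries (log2 difference -0.60, SE 0.056, limma adjusted p = 0.000273). Slc25a33 had 8.16, 7.66 and 7.21 FPKM in the Trim28 libraries, against 10.9, 12.8 and 11.6 FPKM in the Bgal libraries (log2 difference -0.56, SE 0.079, limma adjusted p = 0.00148). Slc25a36 made up 83.9 ± 0.502% in the Trim28 libraries and 83.8 ± 1.59% in the Bgal libraries of their summed level, a difference smaller than either SD.

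Among the calcium-dependent carriers that exchange ATP-Mg for phosphate, 1 of 3 tested genes fell, beside 21.1% of all tested genes. Slc25a23 had 36, 38.4 and 41.9 FPKM in the Trim28 libraries, against 51.3, 49.8 and 46.4 FPKM in the Bgal libraries (log2 difference -0.34, SE 0.066, limma adjusted p = 0.00603). Slc25a24 and Slc25a25 did not pass, at 6.0 ± 1.51 FPKM in the Trim28 libraries and 5.92 ± 0.557 FPKM in the Bgal libraries, and at 6.21 ± 0.71 FPKM in the Trim28 libraries and 6.31 ± 0.631 FPKM in the Bgal libraries (95% confidence intervals of the log2 difference -0.38 to 0.37 and -0.26 to 0.22). Slc25a23 accounted for 76 ± 2.13% in the Trim28 libraries and 80.0 ± 0.708% in the Bgal libraries of the summed level of this group, which also counts Slc25a41 with 0 reads in the Trim28 libraries and 2 reads in each Bgal library.

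The remaining amino acid and carboxylate carriers were mixed. Slc25a15, an ornithine carrier that serves the urea cycle in liver, fell to 4.92 ± 0.227 FPKM in the Trim28 libraries, against 6.28 ± 0.139 FPKM in the Bgal libraries (limma adjusted p = 0.0129). Slc25a10, the dicarboxylate carrier, stood at 14.3 ± 0.921 FPKM in the Trim28 libraries and 17.1 ± 2.26 FPKM in the Bgal libraries and did not pass (limma adjusted p = 0.0949). It passed without Bgal replicate 3 (limma adjusted p = 0.0127) and with the replicate block (0.0424), within a range up to 0.244. Slc25a1, the citrate carrier, and Slc25a38, the glycine carrier of heme synthesis, gave log2 differences of 0.0087 and 0.045 and overlapped. Slc25a44, a carrier of branched-chain amino acids, stood at 14.1 ± 0.703 FPKM in the Trim28 libraries and 15.2 ± 0.698 FPKM in the Bgal libraries and did not pass.

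The 4 genes that rose were Timm13 and 3 carriers. Slc25a26, which brings the methyl donor S-adenosylmethionine into mitochondria, had 42.7, 44.7 and 44.6 FPKM in the Trim28 libraries, against 31.5, 32 and 35.6 FPKM in the Bgal libraries (log2 difference 0.41, SE 0.057, limma adjusted p = 0.00148). No library overlapped, and the call held in every alternative. Slc25a42, a carrier of coenzyme A, had 6.36, 6.29 and 6.34 FPKM in the Trim28 libraries, against 5.4, 5.08 and 4.55 FPKM in the Bgal libraries (log2 difference 0.29, SE 0.079, limma adjusted p = 0.0228). Its call was lost when any 1 of Trim28 replicates 1, 2 and 3, or of Bgal replicate 3 was left out (limma adjusted p between 0.0503 and 0.0653), within a range from 0.0187 to 0.0653 over the alternatives. Its paralog Slc25a16 stood at 4.58 ± 0.493 FPKM in the Trim28 libraries and 4.84 ± 0.428 FPKM in the Bgal libraries and did not pass (interval -0.30 to 0.16). Slc25a42 made up 58.1 ± 2.56% in the Trim28 libraries and 50.9 ± 3.1% in the Bgal libraries of the summed level of this pair. Slc25a2, an ornithine carrier in humans, was low, with 3.68, 4.33 and 2.88 FPKM in the Trim28 libraries, against 1.83, 2.62 and 2.36 FPKM in the Bgal libraries (log2 difference 0.50, SE 0.15, limma adjusted p = 0.0306). Its call was lost when any 1 of Trim28 replicates 1 and 2, or of Bgal replicates 1 and 3 was left out (limma adjusted p between 0.0644 and 0.0949, and 0.0739 with no filter), within a range from 0.0151 to 0.0949 over the alternatives.

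The glutathione carrier Slc25a39 and its paralog Slc25a40 fell, beside 21.1% of all tested genes, while the folate carrier Slc25a32 did not pass. Slc25a39 had 69.6, 74.6 and 68.8 FPKM in the Trim28 libraries, against 78.6, 86.9 and 81.5 FPKM in the Bgal libraries (log2 difference -0.21, SE 0.054, limma adjusted p = 0.0177). Its call was lost when any 1 of Trim28 replicates 1 or 3 was left out (limma adjusted p between 0.0515 and 0.0627), within a range from 0.00868 to 0.0627 over the alternatives. Slc25a40 had 4.13, 4.1 and 4.82 FPKM in the Trim28 libraries, against 5.79, 5.01 and 6.48 FPKM in the Bgal libraries (log2 difference -0.33, SE 0.11, limma adjusted p = 0.0387). That call was lost when any 1 of Trim28 replicates 1 and 2, or of Bgal replicates 1 and 3 was left out (limma adjusted p between 0.0988 and 0.116, and 0.0794 with no filter), within a range from 0.0243 to 0.116 over the alternatives. Slc25a32 stood at 5.72 ± 0.50 FPKM in the Trim28 libraries and 6.42 ± 0.259 FPKM in the Bgal libraries (interval -0.34 to 0.043). Slc25a46, a carrier-like protein of the outer membrane that takes part in mitochondrial shape, stood at 21.5 ± 2.4 FPKM in the Trim28 libraries and 23 ± 1.71 FPKM in the Bgal libraries and did not pass (interval -0.31 to 0.11).

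**Figure D3:**
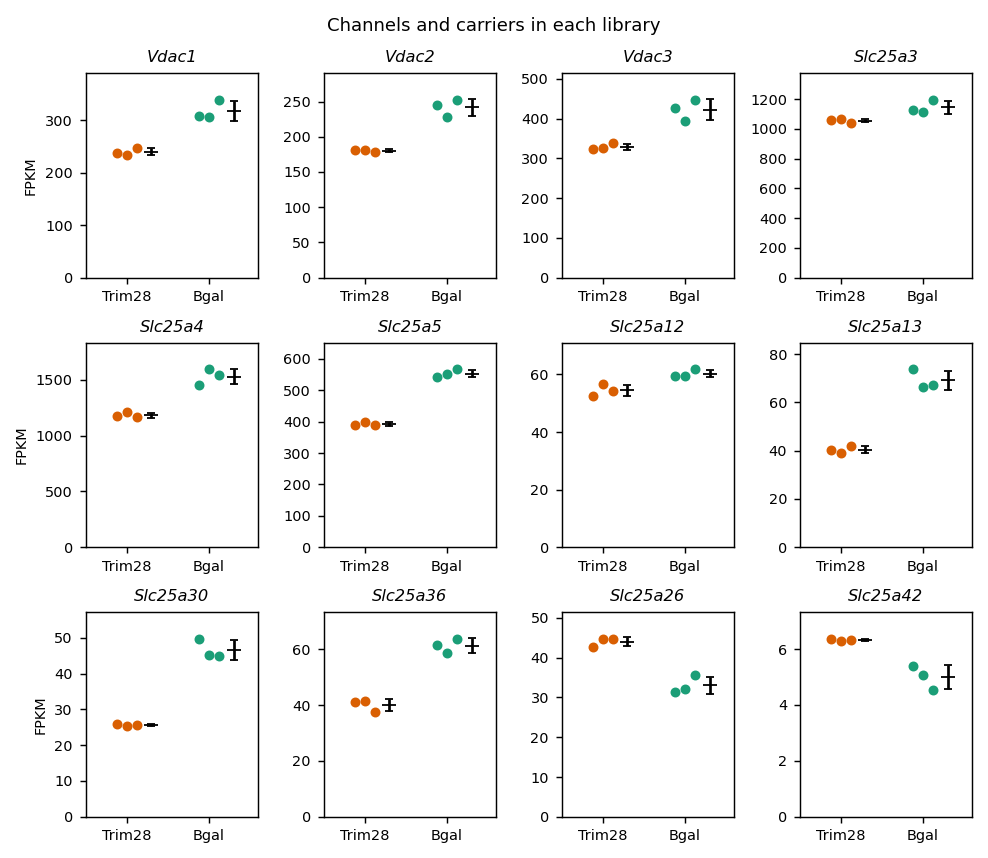
FPKM of 12 channel and carrier genes in each library, with the 3 Trim28 libraries left and the 3 Bgal libraries right in each panel and axes that start at 0. Points are libraries, and the bar beside them is the mean with its SD (n = 3). The VDAC genes, both ADP/ATP carriers, Slc25a13, Slc25a30 and Slc25a36 are lower in every Trim28 library, whereas Slc25a26 and Slc25a42 are higher in every Trim28 library.

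The 11 genes below the filter were Slc25a18, Slc25a22, Slc25a31, Slc25a41, Slc25a43, Slc25a47, Slc25a48, Slc25a54, Timm8a2, Timm8b and Timm17b, and none was tested. Slc25a31, Slc25a54 and Timm17b were listed at 0 in every library. Timm8b had 0, 0 and 3 reads in the Trim28 libraries and 0, 1 and 1 reads in the Bgal libraries. Timm8b and Timm17b are used by many cell types, and no absence of expression is read from these entries. In the deposited table the whole 6753 bases of Timm17b lie within Pqbp1, on the opposite strand, and 532 bases of Timm8b overlap Nkapd1, also on the opposite strand. Whether that overlap set the listed values was not tested, and no source used here states the strand setting of the counting. How reads that match several close copies, such as Slc25a4 and Slc25a5 or Timm8a1 and Timm8a2, were assigned is likewise not stated. The same holds for Timm17b and LOC100911130, an entry described as similar to TIMM17B. Both are listed on the minus strand of chromosome X with a length of 519 bases. Slc25a43 had 0.494, 0.613 and 0.832 FPKM in the Trim28 libraries, against 0.361, 0.285 and 0.134 FPKM in the Bgal libraries, without overlap between the groups, and with 2 libraries at or above 0.5 FPKM it missed the filter.

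Genes of the same machinery that do not carry these names were taken from a list of 54 symbols. The table holds 53 of these, and 49 passed the filter. Among them 23 fell and 2 rose, beside the 21.1% and 20.1% over all genes, with a median log2 difference of -0.19. The list was not split by level, and 35% of all tested genes at a mean of at least 20 FPKM fell. The smallest p-values were those of Hspa9, Chchd3, Mtch2, Ppif, Hspe1 and Mpc1, all lower. Hspa9, the matrix chaperone that drives the import motor, had 133, 133 and 139 FPKM in the Trim28 libraries, against 222, 217 and 228 FPKM in the Bgal libraries (log2 difference -0.71, SE 0.041, limma adjusted p = 5.93e-05). Hspe1, the cochaperonin that folds imported proteins, had 269.5, 292 and 288 FPKM in the Trim28 libraries, against 412, 486 and 495 FPKM in the Bgal libraries (limma adjusted p = 0.0005). Chchd3, a subunit of the complex that shapes the cristae, fell to 89.5 ± 5.06 FPKM in the Trim28 libraries, against 141 ± 0.828 FPKM in the Bgal libraries. Ppif, cyclophilin D of the permeability transition, fell to 48.8 ± 3.49 FPKM in the Trim28 libraries, against 75.2 ± 3.4 FPKM in the Bgal libraries. Mpc1, a subunit of the pyruvate carrier, fell to 225 ± 6.25 FPKM in the Trim28 libraries, against 329.9 ± 25.2 FPKM in the Bgal libraries.

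The outer membrane insertases Mtch1 and Mtch2, distant relatives of the SLC25 carriers, moved in opposite directions. Mtch2 had 137, 135 and 144 FPKM in the Trim28 libraries, against 189, 183 and 194 FPKM in the Bgal libraries (log2 difference -0.44, SE 0.044, limma adjusted p = 0.000363). Mtch1, named after its values were seen, had 141, 129.7 and 134 FPKM in the Trim28 libraries, against 108, 111 and 104 FPKM in the Bgal libraries (log2 difference 0.32, SE 0.047, limma adjusted p = 0.00182). In neither gene did the groups overlap. The other gene of the list that rose was Sfxn1, a serine transporter of the inner membrane, at 13.5 ± 1.26 FPKM in the Trim28 libraries and 10.6 ± 0.632 FPKM in the Bgal libraries (limma adjusted p = 0.0147), also named after its values were seen.

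The falls lay mainly among the abundant genes. Of the 34 tested members with a mean of at least 20 FPKM over the 6 libraries, 23 fell and 2 rose. Of the 4065 tested genes of the whole table at that level, 35% fell and 22.1% rose. Their median log2 difference was -0.33 for the members and -0.064 for all genes at that level. Of the 25 tested members under 20 FPKM, 4 fell and 2 rose, with a median of 0.0087. Of all tested genes under that level, 15.9% fell and 19.3% rose, with a median of 0.00027. The 4 members that fell were Slc25a33, Slc25a15, Slc25a40 and Tomm34. Lower levels also mean fewer reads. Whether that kept falls there from passing was not tested, and 12 of the 25 log2 differences were negative.

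**Figure D4:**
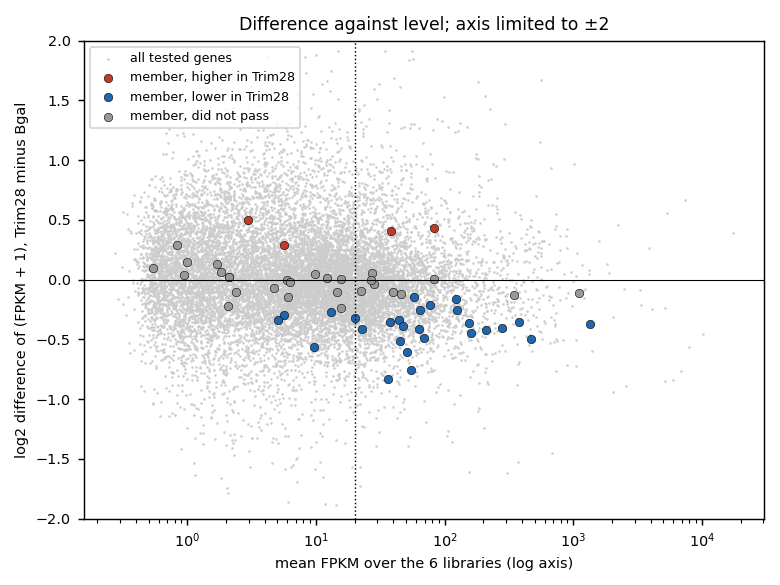
Log2 difference of (FPKM + 1), Trim28 minus Bgal, against the mean FPKM over the 6 libraries on a log axis. Grey specks are the 14808 tested genes and large points the 59 tested members, blue where lower, red where higher and grey where the test was not passed; the dotted line marks 20 FPKM, and the vertical axis ends at 2 on either side. Of the 34 members at or above that level, 30 lie below 0 and 23 passed as lower. Slc25a4, the most abundant, passed as lower, and Slc25a3, next to it in level, did not pass.

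Genes of 2 other mitochondrial machineries are set beside these for scale, with 21.1% of all tested genes lower and 20.1% higher. At a mean of at least 20 FPKM, 35% of all tested genes fell and 22.1% rose, and the machineries were not split by level. Of 89 tested genes of the respiratory chain and ATP synthase, 53 fell and 3 rose (median log2 difference -0.22), and of 74 tested genes of the mitochondrial ribosome, 44 fell and 3 rose (median -0.24). The difference between these groups and the 59 import, VDAC and SLC25 genes was not tested.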

How the data were processed

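RNA of 3 Trim28 and 3 Bgal libraries, grouped by their titles, was sequenced after poly(A) selection. The deposited table gives FPKM per the file headers, with 0 columns of other samples. The authors used HISAT2 2.0.5 and DESeq2, per the submitters' processing notes. No source used here names the counting tool, genome build, annotation release or filters. FPKM is relative to a library's total, so an abundant gene lowers the values of the others.

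FPKM times gene length came out as whole multiples (within 0.01) of a fixed step in each library for 100% of values up to 1000 reads, from which reads were recovered. Depth is given in the report; 1 read on 1 kilobase was worth 0.0281 to 0.0381 FPKM. Replicates differed beyond sampling noise (chi-square per degree of freedom 6.78 to 18.1).

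Genes that reached 0.5 FPKM in 3 or more libraries (14808) were tested on log2(FPKM + 1) with limma 3.58.1 under R 4.3.3 (intensity trend, two-sided, Benjamini-Hochberg adjustment over these genes, threshold 0.05). Such differences understate the change of low genes. Folds are ratios of mean FPKM. The procedure was tested on simulated data with a fixed spread. It recovered 23% of 100 genes set to a 1.3-fold change and 88% of 100 set to a 2-fold change. It also made 21 false calls among the unchanged genes.

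The members, the lists and the level of 20 FPKM were chosen with earlier results of these data known. The naming rule took every Vdac gene, up to 4 members per role with the smallest p, the 6 largest rises and 6 largest falls among called members whose higher group reached 1 FPKM, the 5 most abundant members, paralogs, Trim28, and 6 partner genes with the smallest p. Any other gene was named after its values were seen. A single member is counted but not reported by name here. Same-numbered libraries deviated together with correlations of -0.0164, 0.134 and 0.00915, so the numbers were not taken as pairs.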

Additional observations from a re-analysis of the deposited data

How the results depend on the processing

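The count of members that fell (27) ranged from 22 to 28 over the 13 alternatives, which were a pseudocount of 0.1, no filter, a filter of 5 FPKM, a common median, TMM factors, the replicate block, leaving out each library, and limma-voom on the recovered reads, the last chosen after seeing the data. Leaving out 1 library gave 22 to 24 lower, 2 to 4 higher (4 with all libraries), all 3 Vdac genes called and 4783 to 5643 genes called in all (6097 with all libraries). With limma-voom, 6507 genes were called in all. Of the 31 members called, 23 passed in every alternative run on them. The exceptions were Tomm7, Tomm34, Timm17a, Slc25a2, Slc25a12, Slc25a39, Slc25a40 and Slc25a42. The replicate block ended the call of Slc25a12 (limma adjusted p = 0.0581), added that of Slc25a10 and changed no other call of a member, with 27 lower, 4 higher and 5666 genes in all. The block was run as an alternative only, since the numbers were not found to pair the libraries. The planned tests with edgeR and DESeq2 were not run, and limma-voom was the one count-based test run. Genes that did not pass changed sign near 0: without 1 library, the log2 difference was -0.086 to 0.073 for Slc25a14, -0.13 to 0.0028 for Slc25a16, -0.15 to 0.17 for Slc25a24, -0.095 to 0.063 for Slc25a25, -0.026 to 0.10 for Slc25a27, -0.12 to 0.24 for Timm10b, -0.037 to 0.055 for Tomm40 and -0.10 to 0.15 for Tomm40l. With a common median it was -0.0079 for Slc25a14 and -0.020 for Tomm40, with TMM factors 0.0010 for Slc25a24 and 0.0049 for Tomm40l, and with limma-voom -0.0047 for Tomm40. The cause was not tested. With 3 libraries per group the precision is limited, and a gene that did not pass is not shown to be equal.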

Other observations

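Single libraries stood apart in low or untested entries of this family. Slc25a22, a glutamate carrier, had 0.148, 0.157 and 0.23 FPKM in the Trim28 libraries, against 0.197, 0.227 and 2.4 FPKM in the Bgal libraries, and the value of Bgal replicate 3 was above all others. An entry described as similar to TIMM17B, LOC100911130, had 0.414, 0.441 and 14.4 FPKM in the Trim28 libraries, against 0.379, 0.265 and 0.561 FPKM in the Bgal libraries, with Trim28 replicate 3 above all others. It lies outside the naming pattern and was named after its values were seen. Both entries were below the filter. Mcart1, an entry described as a mitochondrial carrier with a triple repeat, stood at 1.22 ± 0.255 FPKM in the Trim28 libraries and 2.05 ± 0.576 FPKM in the Bgal libraries and did not pass (log2 difference -0.45, limma adjusted p = 0.0585). The member Slc25a51, also on the minus strand of chromosome 5, differed in the other direction. It stood at 1.09 ± 0.0466 FPKM in the Trim28 libraries and 0.894 ± 0.0781 FPKM in the Bgal libraries. Its groups did not overlap, but it did not pass (log2 difference 0.14, limma adjusted p = 0.296). Whether both names stand for the same gene was not tested.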
